A study of Mus musculus with 12 samples.

Results

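The genes examined here are 9 mouse genes of cytosolic nucleic-acid sensing: Ddx58, Ifih1, Dhx58, Eif2ak2, Adar, Mavs, Tmem173, Irf3 and Irf7. They were chosen by name for their known roles, with earlier results of these data known. All 9 were found among the 55401 gene identifiers of the deposited count tables, and all 9 passed the filter on low counts that left 17569 genes for testing. They were measured in Neuro-2a cells, a mouse neuroblastoma line. All 12 libraries come from cells that received 1 µg of the GFP plasmid pCAGGs-linkB-IRES-GFP together with 3 µg of artificial microRNA plasmid (pCAG-miR30 backbone) by Lipofectamine 2000, and that were sorted as GFP-positive 48 h later. The 4 scramble libraries carry 1 control plasmid, the 4 Rbmx knockdown libraries a pool of 3 plasmids against Rbmx, and the 4 Rbmxl1 knockdown libraries a pool of 2 plasmids against Rbmxl1. Each condition was 1 well of a 6-well plate, the transfection was transient, and the controls carry plasmid DNA and an expressed hairpin RNA too. Cells without transfection were not analysed here. The labels call replicates 1 to 4 of each group biological without saying how they were separated, so p-values measure the spread between these libraries.

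Cells hold sensors that read RNA or DNA in the cytosol as a sign of infection. The helicases RIG-I (Ddx58) and MDA5 (Ifih1) bind double-stranded or unusually ended RNA and signal through MAVS on mitochondria, whereas DNA is read by cGAS, whose product activates STING (Tmem173). Both routes end in the transcription factors IRF3 and IRF7, which switch on interferon genes, and interferon in turn raises many of the sensors. The kinase PKR (Eif2ak2) also binds double-stranded RNA and halts translation, and the deaminase ADAR edits cellular double-stranded RNA so that it is not sensed.

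Promoter sequence is shown first for the sensors whose promoter holds an interferon-stimulated response element core, an element through which interferon is known to act on its target genes. The motif GAAANNGAAA was searched on both strands of RefSeq promoters (GRCm38.p6), each 250 bases before to 50 bases after a gene's start. Its repeated GAAA is shared with the sites of interferon regulatory factors, so a match does not tell these motifs apart. Of 32851 promoters, 1131 (3.44%) held a match, which is 3.99% of genes. Promoters of 7 members were in the table, 9 promoters in all, and 3 of them held a match: those of Ddx58, Ifih1 and Eif2ak2. No match was in the promoters of Adar, Mavs, Irf3 and Irf7 given there, and Dhx58 and Tmem173 were not matched to an entry. All 3 genes lie on the minus strand. The stretches run 5′ to 3′ along the gene, and capitals mark the match, which for Ddx58 lies on the opposite strand. The Ddx58 and Eif2ak2 stretches, chr4:40239796-40239975 and chr17:78882543-78882722, run from base -150 to base 30 counted from the RefSeq start. The Ifih1 stretch, chr2:62646214-62646243, runs from base 13 to base 42.
Ddx58: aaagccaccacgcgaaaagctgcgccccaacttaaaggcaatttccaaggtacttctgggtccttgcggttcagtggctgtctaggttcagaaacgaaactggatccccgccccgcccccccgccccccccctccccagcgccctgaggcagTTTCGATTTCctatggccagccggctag
Ifih1: aaagtctggagaagagaatcGAAACAGAAA
Eif2ak2: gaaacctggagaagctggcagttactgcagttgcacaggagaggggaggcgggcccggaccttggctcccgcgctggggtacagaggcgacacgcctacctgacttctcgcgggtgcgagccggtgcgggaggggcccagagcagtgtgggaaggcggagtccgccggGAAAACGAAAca
In each of the 3 genes the match lies just downstream of the RefSeq start, at bases 3 to 12 in Ddx58, 33 to 42 in Ifih1 and 19 to 28 in Eif2ak2. Among the interferon-stimulated effector genes listed for comparison, promoters of 12 of 34 genes (35.3%) held the motif. The share was 25% of genes among other sensors, 22.2% among interferon and JAK-STAT genes, 15.4% among eIF2 kinases and PKR regulators, 5.26% among adaptors and 0% among nucleic-acid degrading enzymes. A match describes the letters of the sequence and is no measure of binding.

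Libraries held 43.1 to 52.2 M reads in genes, and levels are given as CPM, counts scaled to the TMM-adjusted total of reads in genes. A count of 0 allows a level of up to 0.0574 to 0.0696 CPM, the value of 3 counts in these libraries, which covers counting error only. The targeted genes followed the labels: Rbmx was at 67.7 CPM in scramble and 27.6 CPM in Rbmx knockdown, and Rbmxl1 at 34.1 CPM in scramble and 14.1 CPM in Rbmxl1 knockdown. Rbmx was at 86.3 CPM in Rbmxl1 knockdown, 0.36 ± 0.07 above scramble on the log2 scale (adjusted p = 0.0165 by edgeR with the replicate block, 0.444 without it). Of 12 neuroblast and neuronal markers, 9 had a mean of at least 1 CPM. Below it were Nefl (at most 3 counts), Nefm (at most 2 counts) and Dcx (mean 0.905 CPM). The summed level of all 12 was 1479 to 1851 CPM in scramble, 1565 to 1984 CPM in Rbmx knockdown and 1518 to 1833 CPM in Rbmxl1 knockdown. None of 11 leukocyte markers had a mean of 1 CPM over the libraries. Their sum stayed between 0.604 and 2.04 CPM in every library, and Itgam and Cd3e were at 0 counts throughout. Of 7 fibroblast markers, Pdgfrb and Pdgfra had a mean of at least 1 CPM, with list sums of 25.6 to 45.8 CPM, and Col3a1 was at 0 counts.

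All 9 members were detected in every library, at levels spread over a wide range. Per kilobase of annotated exon, the scramble means ran in the order Adar, Mavs, Eif2ak2, Tmem173, Irf3, Dhx58, Ddx58, Irf7 and Ifih1. Adar was highest at 18.4 CPM per kb (17.0 to 19.7 over the 4 scramble libraries) and did not overlap any other member. The signalling genes followed, with Mavs at 7.62 (7.29 to 8.01), Tmem173 at 5.30 (3.49 to 7.26) and Irf3 at 4.70 (4.20 to 5.03) CPM per kb. The kinase gene Eif2ak2 was at 7.08 (5.64 to 9.03) CPM per kb, and its libraries overlapped those of Mavs and Tmem173. The RNA helicases were low: Dhx58, which encodes LGP2, a regulator of the other helicases, was at 2.08 (1.37 to 2.70) and Ddx58 at 1.49 (0.900 to 2.12) CPM per kb. Ifih1 was lowest at 0.357 (0.191 to 0.584) CPM per kb, below but overlapping the interferon-induced factor gene Irf7 at 0.878 (0.182 to 1.61). In this order, Adar did not overlap Mavs and Irf3 did not overlap Dhx58. All other neighbours overlapped: Mavs and Eif2ak2, Eif2ak2 and Tmem173, Tmem173 and Irf3, Dhx58 and Ddx58, Ddx58 and Irf7, and Irf7 and Ifih1.

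**Figure D1:**
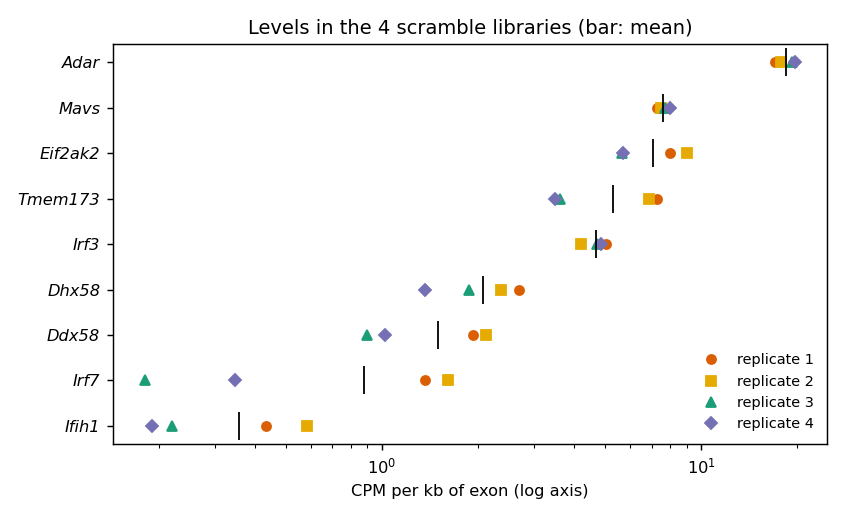
Level of each member in the 4 scramble libraries, in CPM per kb of annotated exon on a log axis; points are libraries and bars mark the means. Adar, at 18.4, lies above every other member, and Irf7 and Ifih1 lie at the low end with the widest spread.

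In 6 of the 9 members the libraries divided by replicate number, whereas the groups overlapped. Replicates 1 and 2 of every group had more Irf7, Ifih1, Tmem173, Ddx58, Dhx58 and Eif2ak2 RNA than replicates 3 and 4 of any group, with no overlap between the 6 libraries and the other 6. Over all tested genes, 10.6% were higher in replicates 1 and 2 in this sense and 9.4% were lower. What the number stands for is not given in the sources used here, the division was seen in the data, and the comparison is a description without a test. In bulk RNA, fewer cells that express a gene and less RNA per cell cannot be told apart.

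Irf7, the interferon-induced amplifier of interferon transcription, varied most. Its level in scramble replicates 1 to 4 was 5.17, 6.09, 0.687 and 1.31 CPM. In Rbmx knockdown replicates 1 to 4 it was 7.20, 6.95, 1.37 and 1.53 CPM. In Rbmxl1 knockdown replicates 1 to 4 it was 4.93, 4.74, 3.83 and 1.06 CPM, so that replicate 3 of this group stood nearer to replicates 1 and 2 than to the other libraries numbered 3 or 4. The mean over the 6 libraries numbered 1 or 2 was 5.85 CPM against 1.63 CPM over the other 6, a ratio of 3.59, and 0.148% of tested genes had a higher ratio.

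The RNA helicase genes showed the same division. Ddx58 was at 13.6, 14.95, 6.35 and 7.23 CPM in scramble replicates 1 to 4. It was at 18.1, 19.1, 10.3 and 8.15 CPM in Rbmx knockdown and at 15.2, 15.1, 13.0 and 7.10 CPM in Rbmxl1 knockdown. Replicate 3 of Rbmxl1 knockdown was again the highest of the libraries numbered 3 or 4. The ratio of the means was 1.84 for Ddx58. Ifih1 ranged from 3.54 to 4.79 CPM in replicates 1 and 2 and from 1.56 to 2.95 CPM in replicates 3 and 4, a ratio of 1.99. For Dhx58 the ranges were 6.65 to 10.2 and 4.47 to 6.27 CPM, a ratio of 1.68.

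Tmem173 (chromosome 18, 35733679 to 35740554, minus strand) followed with 18.8 to 24.3 CPM in replicates 1 and 2 and 9.57 to 14.3 CPM in replicates 3 and 4, a ratio of 1.86. Eif2ak2 had ranges of 29.98 to 46.2 and 22.9 to 29.1 CPM, a ratio of 1.44. The remaining 3 members overlapped between the replicates, with ratios of 0.960 for Mavs, 0.958 for Irf3 and 0.834 for Adar. The median log2 ratio was 0.75 over the members and -0.02 over all tested genes, of which the central 90% lay between -0.82 and 0.67.

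**Figure D2:**
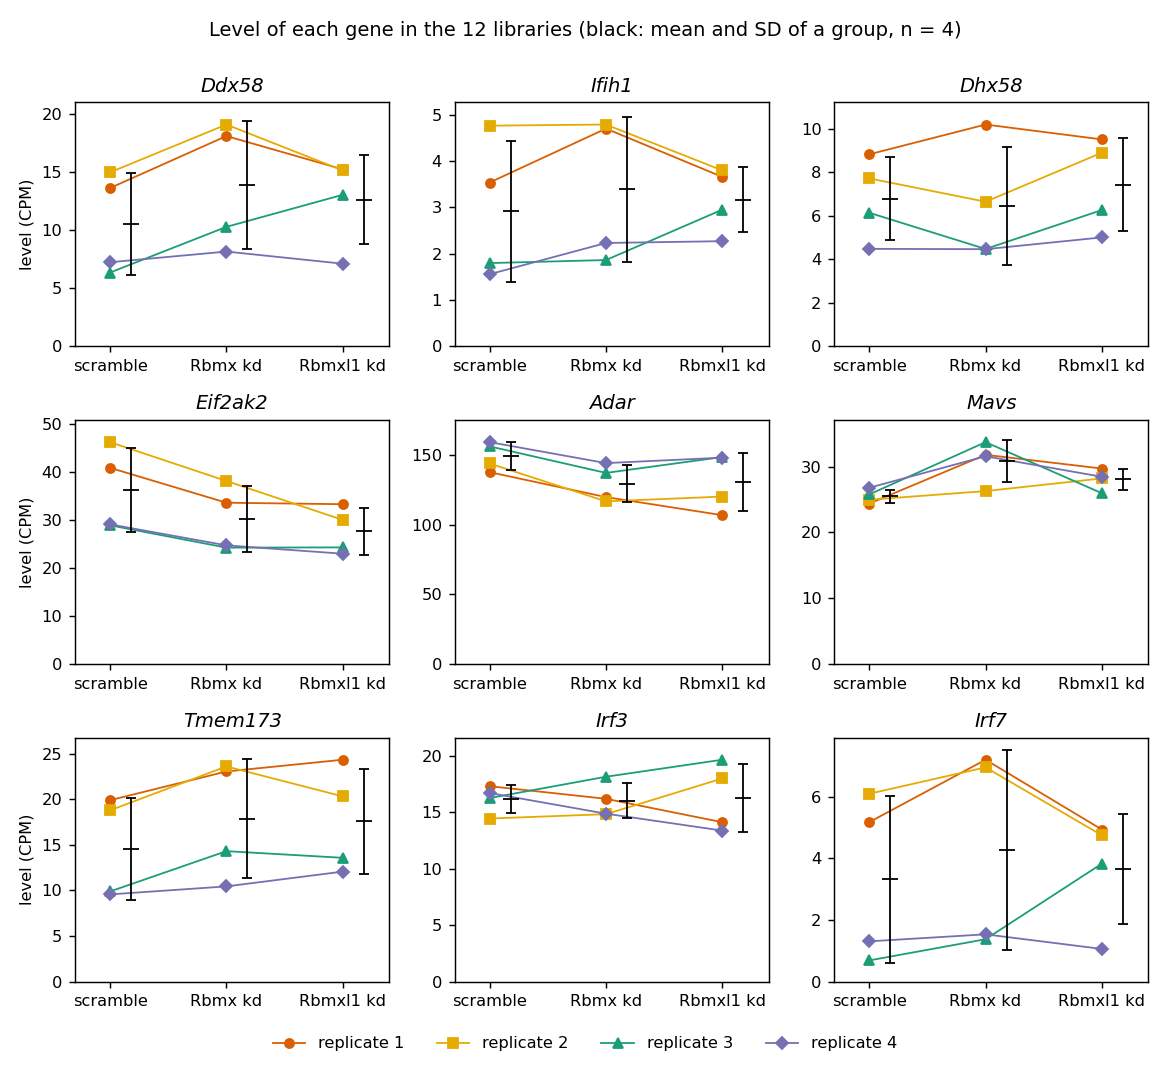
Level of each of the 9 members in CPM in the 12 libraries, by group, with 1 colour and marker per replicate number and lines joining libraries of the same number; black marks give the mean and SD of a group (n = 4). For Irf7, Ifih1, Tmem173, Ddx58, Dhx58 and Eif2ak2 replicates 1 and 2 lie above replicates 3 and 4 in every group.

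The division was also seen in listed interferon-stimulated effector genes, which are the antiviral products downstream of the sensors. Against the 10.6% higher and 9.4% lower of all genes, 15 of 33 tested were higher in replicates 1 and 2 without overlap and 0 were lower, with a median log2 ratio of 0.45. Oasl2, Isg15 and Ifit1, named after their values were seen, had means of 10.7 against 4.60, 7.79 against 4.56 and 2.93 against 1.92 CPM. Oasl2 and Isg15 did not overlap between the 6 and 6 libraries, and Ifit1 did. Of 18 tested genes of interferon receptors and JAK-STAT signalling, 6 were higher and 1 was lower, with a median of 0.10. Among 23 adaptors, kinases and ubiquitin ligases the counts were 3 and 3, and among 11 other sensors 1 and 0, both near the share of all genes. By contrast, 0 of 11 enzymes that degrade or limit endogenous nucleic acids were higher and 5 were lower (median -0.24). Of 17 genes of the eIF2 kinases, phosphatase subunits and PKR regulators, 2 were higher and 7 lower (median -0.17).

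**Figure D3:**
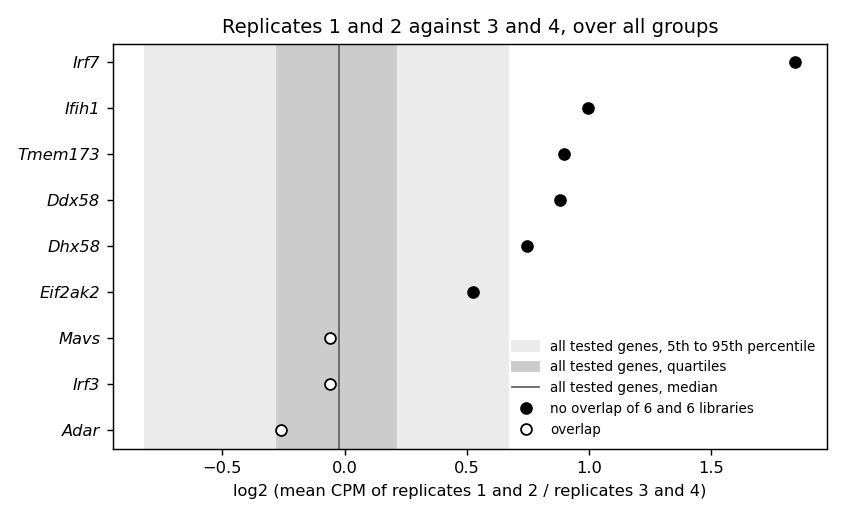
Log2 ratio of mean CPM in replicates 1 and 2 over replicates 3 and 4 for each member, filled where the 6 and 6 libraries do not overlap; grey bands show the quartiles and the central 90% of all tested genes. Irf7 is highest among the members at 1.84, and Adar lowest at -0.26.

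The interferon genes of the lists, Ifnb1 and Ifna4, were at 0 counts in every library; they are named after their values were seen, and other interferon genes were not examined.

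Knockdown of Rbmx was next set against scramble, with the replicate number as a block so that libraries of the same number are compared. The sensing genes moved in both directions by small amounts. Mavs and Tmem173, which encode the adaptors of RNA and DNA sensing, rose by 20.8% and 23.3%. Eif2ak2 and Adar, whose proteins both bind double-stranded RNA, fell by 16.6% and 13.5%. A gene was called at an adjusted p under 0.05 in edgeR's quasi-likelihood test with Benjamini-Hochberg adjustment over all 17569 genes. By that rule 2 members were called higher, against 4.16% of all tested genes, and 2 lower, against 4.19%, so that 4 of 9 were called where 8.35% of all genes were. The median log2 fold change was 0.24 over the members and -0.00 over all genes.

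Mavs (chromosome 2, 131234063 to 131248025, plus strand), the mitochondrial adaptor, was at 24.4, 24.97, 25.8 and 26.8 CPM in scramble replicates 1 to 4 and at 31.8, 26.3, 33.7 and 31.6 CPM in Rbmx knockdown. All 4 knockdown libraries were above the scramble library of their number, and only replicate 2 fell within the scramble range. The log2 fold change was 0.27 ± 0.08 (SE; 95% interval 0.11 to 0.43; adjusted p = 0.0373). The group means were 25.5 ± 1.05 CPM in scramble and 30.9 ± 3.19 CPM in Rbmx knockdown (SD, n = 4).

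Tmem173, which encodes STING, was at 19.9, 18.8, 9.89 and 9.57 CPM in scramble and at 23.1, 23.6, 14.3 and 10.4 CPM in Rbmx knockdown. The groups overlapped widely, while each knockdown library was above the scramble library of its number. The log2 fold change was 0.30 ± 0.09 (95% interval 0.12 to 0.49; adjusted p = 0.0418).

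Eif2ak2 (chromosome 17, 78852564 to 78882573, minus strand), which encodes PKR, was at 40.8, 46.2, 28.9 and 29.1 CPM in scramble and at 33.6, 38.1, 24.2 and 24.7 CPM in Rbmx knockdown. Every knockdown library was below its same-number control, and the groups overlapped. The log2 fold change was -0.26 ± 0.07 (95% interval -0.41 to -0.11; adjusted p = 0.0319).

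Adar (chromosome 3, 89715022 to 89753446, plus strand) was at 138, 144, 157 and 160 CPM in scramble and at 120, 117, 137 and 144 CPM in Rbmx knockdown. It too was below the same-number control in 4 of 4 cases, with overlap between the groups. The log2 fold change was -0.21 ± 0.06 (95% interval -0.33 to -0.08; adjusted p = 0.0403). Adar shares 1365 exon bases with Chrnb2, a nicotinic receptor subunit gene on the opposite strand, and the strand setting of the counting is not given in the sources used here. Chrnb2 was at 77.9 CPM in scramble and its own log2 fold change in Rbmx knockdown was 0.05 (adjusted p = 0.598).

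The other 5 members were not called. Ddx58 was above its same-number control in 4 of 4 cases, with a log2 fold change of 0.40 ± 0.13 (95% interval 0.11 to 0.68; adjusted p = 0.0806). It passed the threshold with DESeq2 (adjusted p = 0.0316), without the filter on low counts (0.00444), with the Rbmx knockdown and scramble libraries alone (0.0152) and without Rbmxl1 knockdown replicate 3 (0.0190), but in none of the remaining settings of 23 tried. Without scramble replicate 3 the value was 0.24 (adjusted p = 0.281). For Ifih1 the value was 0.24 ± 0.19 (interval -0.16 to 0.64), for Irf7 0.39 ± 0.33 (-0.30 to 1.08), for Dhx58 -0.11 ± 0.12 (-0.37 to 0.15) and for Irf3 -0.02 ± 0.10 (-0.24 to 0.20). Ifih1 was at 0.15 without Rbmx knockdown replicate 1 and at 0.39 without scramble replicate 2. Without scramble replicate 3 the Irf7 value was 0.09, and with 1 library or number left out Dhx58 ranged from -0.23 to 0.01. Irf3, which encodes the constitutive partner of IRF7, was at 16.2 ± 1.23 CPM in scramble and 16.01 ± 1.56 CPM in Rbmx knockdown (SD, n = 4).

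Of the counts in each file, the share in rows that name no gene was 52.3, 53.5, 52.9 and 55.3% in scramble replicates 1 to 4. It was 54.2, 55.5, 53.5 and 57.4% in Rbmx knockdown and 55.3, 53.7, 56.8 and 56.4% in Rbmxl1 knockdown. All 4 libraries of each knockdown exceeded their same-number control in this share, and its part in the members' changes was not tested.

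The calls in Rbmx knockdown depend on the block and on the full number of libraries. Without the block none of the 9 members was called by edgeR, while 0.00569% of all genes were. At an unadjusted p under 0.05 was 1 member (Mavs, adjusted p = 0.288), against 1919 of all 17569 genes. Without the block the adjusted p was 0.792 for Tmem173, 0.656 for Eif2ak2 and 0.535 for Adar. Eif2ak2 and Adar lost their calls when any scramble or any Rbmx knockdown library was left out, with values of -0.29 to -0.22 and -0.24 to -0.17. Mavs lost its call without any scramble library or without Rbmx knockdown replicate 1, 3 or 4 (0.21 to 0.35 over all fits with a library or number left out), and Tmem173 without any scramble library or without Rbmx knockdown replicate 1, 2 or 3 (0.23 to 0.36). Leaving out Rbmxl1 knockdown replicate 4 ended the calls of Mavs (adjusted p = 0.0581), Tmem173 (0.0541) and Adar (0.0563). Within replicates 1 and 2 alone and within replicates 3 and 4 alone, the log2 fold changes were 0.24 and 0.31 for Mavs, 0.28 and 0.33 for Tmem173, -0.27 and -0.25 for Eif2ak2 and -0.24 and -0.17 for Adar. Of these, only Mavs in replicates 3 and 4 was called (adjusted p = 0.0290).

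**Figure D4:**
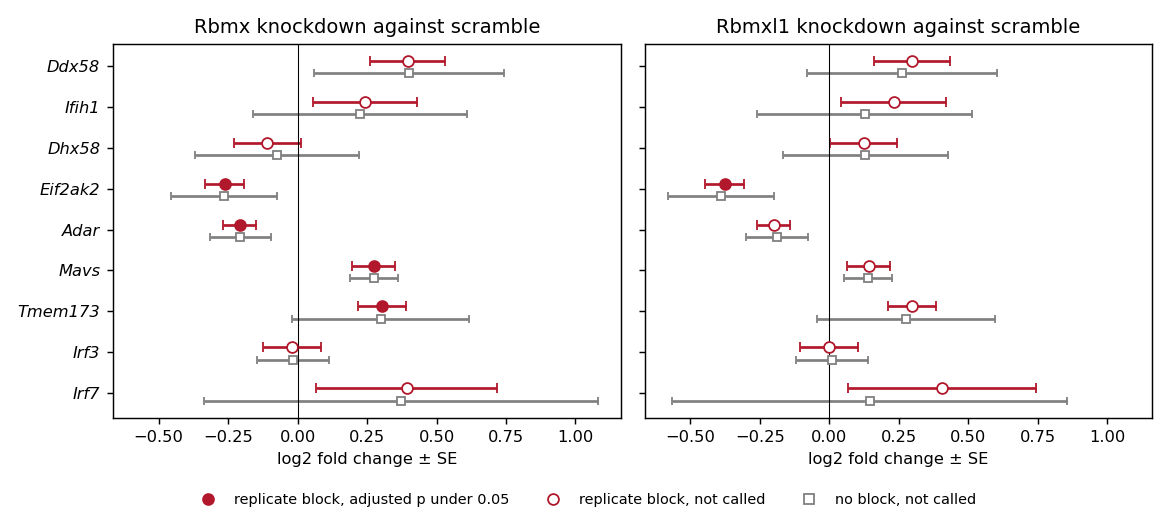
Log2 fold change of each member against scramble in Rbmx and Rbmxl1 knockdown ± SE, in red with the replicate block (filled at an adjusted p under 0.05) and in grey without it. Mavs and Tmem173 are filled above 0 and Eif2ak2 and Adar below 0 in Rbmx knockdown, and Eif2ak2 alone is filled in Rbmxl1 knockdown.

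Knockdown of Rbmxl1 was compared with the same 4 scramble libraries, so the comparisons with scramble share their controls. Eif2ak2 was the only member called, and it fell by 23.0%. In this comparison 2.2% of all genes were called lower, 2.25% higher and 4.46% in either direction. The median log2 fold change was 0.14 over the members and 0.01 over all genes.

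Eif2ak2 was at 33.2, 29.98, 24.3 and 22.9 CPM in Rbmxl1 knockdown replicates 1 to 4, each below the scramble library of its number. The groups overlapped, with means of 36.2 ± 8.67 CPM in scramble and 27.6 ± 4.84 CPM in Rbmxl1 knockdown (SD, n = 4). The log2 fold change was -0.38 ± 0.07 (95% interval -0.53 to -0.23; adjusted p = 0.0112). This call was kept in 14 of 16 fits that left out 1 library or 1 replicate number. It was lost without scramble replicate 2 (-0.34, adjusted p = 0.0524), without replicate 4 of every group (adjusted p = 0.0586) and without the block (adjusted p = 0.608). Replicates 1 and 2 alone gave -0.45 (adjusted p = 0.128), and replicates 3 and 4 alone gave -0.30 (adjusted p = 0.0466).

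Of the other double-stranded RNA binding and adaptor genes, Adar was at 107, 120, 149 and 148 CPM and gave -0.20 ± 0.06 (adjusted p = 0.0657). Tmem173 was at 24.3, 20.3, 13.6 and 12.1 CPM and gave 0.30 ± 0.09 (adjusted p = 0.0622). Both passed the threshold with DESeq2 (adjusted p = 0.0250 and 0.0293), and Tmem173 also without Rbmxl1 knockdown replicate 2 (0.37, adjusted p = 0.0255). Mavs was at 29.7, 28.2, 26.0 and 28.5 CPM and gave 0.14 ± 0.08 (95% interval -0.02 to 0.30; adjusted p = 0.324). In replicates 1 and 2 alone and in replicates 3 and 4 alone, Mavs gave 0.24 and 0.04 and Adar -0.30 and -0.10. Mavs was lowest at 0.09, without replicate 1 of every group. Each of these 3 genes lay on 1 side of the same-number control in 4 of 4 cases, Adar below and the others above.

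The helicases and factors of transcription were not called in Rbmxl1 knockdown. The log2 fold change was 0.30 ± 0.14 for Ddx58 (95% interval 0.01 to 0.59; adjusted p = 0.238), 0.23 ± 0.19 for Ifih1 (-0.17 to 0.63), 0.12 ± 0.12 for Dhx58 (-0.13 to 0.38), 0.41 ± 0.34 for Irf7 (-0.31 to 1.12) and -0.00 ± 0.10 for Irf3 (-0.22 to 0.22). Dhx58 gave 0.07 without scramble replicate 1, 0.08 without Rbmxl1 knockdown replicate 2 and 0.20 without scramble replicate 3. Replicate 3 of Rbmxl1 knockdown carries much of the Ddx58, Ifih1 and Irf7 values. Without that library the values were 0.10 for Ddx58, 0.03 for Ifih1 and -0.17 for Irf7, so that the sign of Irf7 turned. Over all fits with a library or number left out, Ddx58 ran from 0.05 to 0.40, Ifih1 from 0.03 to 0.44 and Irf7 from -0.24 to 0.73. In replicates 1 and 2 alone Irf7 gave -0.21, and in replicates 3 and 4 alone 1.19. Without the block no member was called by edgeR, while 0.00569% of all genes were. None of the members had an unadjusted p under 0.05 in that fit, against 1487 of all 17569 genes.

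Setting the knockdowns against each other showed no called difference in any member. The share of all genes called in this comparison was 0.0114%. By edgeR with and without the block none of the 9 members had an unadjusted p under 0.05, and DESeq2 called none either. Of all 17569 genes, 1002 had such a p with the block and 273 without it. The 95% intervals of Rbmx knockdown minus Rbmxl1 knockdown were -0.04 to 0.26 for Eif2ak2 (0.11 ± 0.07), -0.03 to 0.29 for Mavs (0.13 ± 0.08), -0.13 to 0.12 for Adar, -0.18 to 0.19 for Tmem173 and -0.49 to 0.02 for Dhx58 (-0.23 ± 0.12). For Adar and Tmem173 these bounds are smaller than the changes against scramble, whereas for Mavs the upper bound is larger than its change in Rbmx knockdown. For Ddx58 the interval was -0.19 to 0.38, for Ifih1 -0.39 to 0.41 and for Irf7 -0.71 to 0.68. With 1 library or number left out, the differences ran from 0.04 to 0.16 for Eif2ak2, from 0.06 to 0.21 for Mavs and from -0.35 to -0.14 for Dhx58. They ran from 0.02 to 0.31 for Ddx58, from -0.13 to 0.24 for Ifih1 and from -0.26 to 0.61 for Irf7. The lowest Eif2ak2 value was without Rbmxl1 knockdown replicate 2, the lowest Mavs value without replicate 3 of every group, and the Dhx58 extremes without Rbmx knockdown replicate 1 and replicate 3. The difference in Mavs was -0.00 in replicates 1 and 2 and 0.27 in replicates 3 and 4 (adjusted p = 0.358). Mavs was therefore called in 1 comparison with scramble and not in the other without a called difference between the knockdowns.

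Of the genes around the members, 2 of 23 adaptors, 1 of 11 other sensors, 1 of 18 interferon and JAK-STAT genes and 1 of 33 effector genes were called in Rbmx knockdown, against the 8.35% of all genes. Each of these counts fell to 0 in at least 1 fit with a library or number left out. The highest counts in such fits were 4, 1, 1 and 3, in the same order. At an unadjusted p under 0.05 were 9, 3, 4 and 7 of these genes, and DESeq2 called 4, 1, 1 and 3. Over all 17569 genes, 4366 had such a p and DESeq2 called 2024. In Rbmxl1 knockdown, 1 adaptor, 1 JAK-STAT gene and none of the other sensors and effector genes were called, against 4.46% of all genes. With a library or number left out, these counts ran from 0 to 2, 0 to 1, 0 to 1 and 0 to 3, in that order. There 3479 of all genes had an unadjusted p under 0.05 and DESeq2 called 1279. Over 23 tested adaptors, kinases and ubiquitin ligases the median change was -0.06 for Rbmx and -0.09 for Rbmxl1 knockdown. Of these, Ticam1, an adaptor of endosomal RNA sensing, rose by 0.30 ± 0.09 in Rbmx knockdown (adjusted p = 0.0418). Chuk, a kinase subunit upstream of NF-κB, fell by 0.36 ± 0.09 (adjusted p = 0.0246). Tnfaip3, which encodes the inhibitor A20, was the only gene of the list called by the reported edgeR fit in Rbmxl1 knockdown. It rose from 2.17 ± 0.171 to 4.25 ± 1.41 CPM (SD, n = 4), a log2 fold change of 0.94 ± 0.20 (adjusted p = 0.0172). In Rbmx knockdown it gave 0.63 ± 0.20 (adjusted p = 0.0573). Of the list, 4 genes had an unadjusted p under 0.05 in Rbmxl1 knockdown, and DESeq2 called 3. Of 11 other sensors tested (medians -0.06 and 0.00), Nlrx1, a mitochondrial protein that restrains MAVS, rose by 0.47 ± 0.14 in Rbmx knockdown (adjusted p = 0.0467), from 3.32 ± 0.367 to 4.58 ± 0.451 CPM, and none was called in Rbmxl1 knockdown, where 3 had an unadjusted p under 0.05 and DESeq2 called 2.

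Downstream of the sensors, Ifngr2, an interferon gamma receptor chain, was called in Rbmx knockdown (0.21 ± 0.06, adjusted p = 0.0355). Socs1, an inhibitor of JAK-STAT signalling, was called in Rbmxl1 knockdown (0.50 ± 0.13, adjusted p = 0.0378). Each was 1 of 18 tested (medians 0.09 and 0.07). In Rbmxl1 knockdown 3 of the 18 had an unadjusted p under 0.05 and DESeq2 called 2. At least 1 fit with a library or number left out called 0 of them. Of 33 tested interferon-stimulated effector genes, H2-K1, a class I antigen-presenting molecule, rose from 254 ± 9.30 to 292 ± 8.08 CPM in Rbmx knockdown (0.20 ± 0.05, adjusted p = 0.0325). None was called in Rbmxl1 knockdown, where 9 had an unadjusted p under 0.05 and DESeq2 called 4. With a library or number left out, up to 3 effector genes were called there. The medians of this list were 0.09 and 0.12, with 24 and 26 of 33 fitted above 0. Without the block no gene of these lists was called.

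Of 11 tested enzymes that degrade or limit endogenous nucleic acids, none was called by edgeR or DESeq2 and none had an unadjusted p under 0.05. The most abundant were Xrn1, a 5′ exonuclease, at -0.05 ± 0.06 in Rbmx and -0.06 ± 0.06 in Rbmxl1 knockdown, and Skiv2l, an RNA helicase of the exosome pathway, at -0.14 ± 0.07 and -0.05 ± 0.07. None of 17 genes of the eIF2 kinases, phosphatase subunits and PKR regulators was called by the reported edgeR fit or by DESeq2 in either knockdown. At an unadjusted p under 0.05 were 4 and 2. With a library or number left out, up to 1 was called in Rbmx and up to 2 in Rbmxl1 knockdown. The most abundant of the 17 genes, Npm1, gave 0.05 ± 0.08 and -0.03 ± 0.08. Ppp1r15b, a phosphatase subunit that acts on eIF2, gave -0.06 ± 0.06 and -0.01 ± 0.06.

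Genes whose log2 CPM ran most like that of a called member were found among 13318 genes with a mean of at least 1 CPM over the 12 libraries, which share the division by replicate number. Mavs had the loosest company, with Naa60 (Pearson r 0.918, Spearman rho 0.944), Ier5l (0.864 and 0.853) and Slc25a29 (0.851 and 0.874). Tmem173 ran with Igtp (0.987 and 0.958), Adamts4 (0.986 and 0.986) and Mpp2 (0.985 and 0.986). Eif2ak2 ran with Tlk1 (0.977 and 0.951), Snx25 (0.972 and 0.937) and Lats1 (0.970 and 0.944). Adar ran with Eif4enif1 (0.975 and 0.923) and Kansl2 (0.971 and 0.937). These coefficients describe the same 12 libraries and carry no test.

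Little of the members' transcript sequence occurs, in the same orientation, in transcripts of other genes. Of the 50-base words of Eif2ak2, 0.352% occurred in another annotated gene, and for the other 8 members the share was 0%. Eif2ak2 shares 221 exon bases with genes on the opposite strand: n-R5s29, which was at 0 counts, and Gm26637, which was not analysed here. Besides these and the overlap of Adar with Chrnb2, the overlaps were 88 exon bases of Irf3 with Bcl2l12 (1.86 CPM in scramble), 45 of Irf7 with Phrf1 (125 CPM) and 141 of Dhx58 with Dhx58os, which was at 0 counts.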

How the data were processed

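The members, the comparison lists and the named genes were chosen with earlier results of these data known. The authors deposited raw counts per Ensembl gene for each library. The submitters' processing notes name cutadapt, STAR 2.5.3a, HTSeq 0.6.1p1, R 3.3.2, DESeq2 1.16.1 and the build mm10, and the labels describe stranded libraries from ribosome-depleted total RNA. Rows that name no gene (52.3% to 57.4% of the counts in each file, mostly for several alignments or for reads outside features) were left out. Positions come from GENCODE M21 (GRCm38), which holds 55141 of the identifiers and not 260.

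Counts were fitted with edgeR 4.0.16 in R 4.3.3: filterByExpr (minimum count 10, minimum total 15), TMM scaling, a quasi-likelihood model with group and replicate number, Benjamini-Hochberg adjustment over all tested genes, and a call at 0.05. Deviations from group means correlated at 0.195 to 0.524 in the 12 same-number pairs, at 0.100 to 0.431 in the 12 other pairs within replicates 1 and 2 or 3 and 4, and at -0.573 to -0.129 in the remaining 24. The pairing rests on the values alone. Common dispersion was 0.00929 with the block and 0.0362 without it. Alternatives were no block, DESeq2 1.42.0 (test or size factors), no filter, the groups compared alone, replicates 1 and 2 or 3 and 4 alone, and each library or number left out. Named genes are all members, the called genes of each list or its most abundant 2 where none was called, and the 3 genes most like each called member, of which 1 is not reported here. Oasl2, Isg15, Ifit1, Ifnb1 and Ifna4 are named outside this rule.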

Additional observations from a re-analysis of the deposited data

How the results depend on the processing

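Over 23 other settings, 564 of 621 log2 fold changes of the members kept the sign reported. No member changed sign in a comparison where it was called. The settings refit the same libraries or parts of them, so they are no independent repeats. In Rbmx knockdown, 1467 genes and 4 members were called. Without the replicate block these became 1 and 0, with replicates 1 and 2 alone 4 and 0, and with replicates 3 and 4 alone 1818 and 1. Leaving out 1 library or number gave 146 to 1904 genes and 0 to 5 members. In Rbmxl1 knockdown, 783 genes and 1 member were called. Without the block these became 1 and 0, with DESeq2 1279 and 3, and with replicates 1 and 2 alone 30 and 0. No filter gave 1243 genes and the compared groups alone 426. Leaving out 1 library or number gave 100 to 1032 genes and 0 to 2 members. Between the knockdowns, 2 genes were called, against 10 with DESeq2, 86 without the filter, 4 in replicates 1 and 2, 18 in replicates 3 and 4, and 2 to 7 with a library or number left out; no member was called in any setting. Fits on fewer libraries or numbers have fewer residual degrees of freedom than the 6 reported; the cause of the other shifts was not tested. Ifih1 and Irf7, at a few CPM, have the widest intervals among the members.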
